A study of Mus musculus with 6 samples.

Results

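The genes described here are the chromatin modifiers and remodellers whose symbols begin with Hdac, Sirt, Kdm, Kmt, Kat, Smarc, Dnmt, Ezh, Cbx, Chd, Brd, Setd or Suv, followed only by digits and small letters. The pattern took 68 of 16281 features on the array, which stand for 58 of 10698 genes. It used names and no measured value, but it was chosen with earlier results of these data known. Of the 58 genes, 3 are taken by name only (Katna1, Katnal2 and Katnbl1, relatives of katanin, which severs microtubules), and they are kept apart below. A feature annotated to Ss18 together with Chd1l has several symbols and was not taken. The table compares RNA of RAW 264.7 cells, a mouse macrophage line, after 8 h of culture with lipopolysaccharide (LPS, 100 ng/ml) plus LPS-binding protein (100 pM) with RNA of the same line left untreated for 8 h. Treated and untreated RNA shared each of 6 two-colour arrays. On 3 of them, the Cy5 arrays below, treated RNA carried the red dye Cy5, and on the other 3, the Cy3 arrays, it carried the green dye Cy3. The arrays form 3 numbered sets, each with 1 array of either orientation.

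DNA in the nucleus is wound around histones, and the enzymes and readers described here set how tightly. Acetyltransferases (writers) and deacetylases (erasers) add and remove acetyl groups on histone lysines, methyltransferases and demethylases do the same with methyl groups, and DNA methyltransferases methylate cytosine. Bromodomain proteins bind acetylated lysines, chromobox proteins bind methylated histone H3, and the SMARC and CHD proteins form machines that move nucleosomes with the energy of ATP. In macrophages such factors are known to set which inflammatory genes can be switched on by Toll-like receptor signals.

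Values are log2 ratios of treated over untreated RNA, so that 0 is no difference and -1 is a fall to a level 2-fold lower. The direction is a likely one. The table does not name the numerator. Cy5 was taken as the numerator since the labels describe Cy5 as test and Cy3 as control. Under the opposite reading all rises and falls would exchange places, and 13 of the 14 LPS response genes counted below would have fallen. A value of exactly 0 was treated as not measured. Both arrays of a set were averaged to 1 set value, and 10088 genes with at least 2 set values were tested against 0 with limma, a linear model that shares information on the spread between genes, with Benjamini-Hochberg adjusted p under 0.05 as the threshold. SDs are over set values (n = 3 sets unless stated). Nothing in the labels states that sets came from separate cultures, so the p-values cover only the spread between sets, which may be technical. Ratios between arrays correlated over features with Pearson's r of 0.705 to 0.899 within an orientation and 0.428 to 0.8 between orientations once turned to 1 direction, where features are not independent replicates. As a check of the labels, 13 of 14 measured LPS response genes rose, among them Ifit2, an interferon-induced antiviral gene (4.65 ± 0.12), and Rsad2, which encodes viperin (4.53 ± 0.29). The exception was Socs3, at -0.05 ± 0.21 (limma's adjusted p = 0.691). The ratios carry no level of expression, so the labelled cell type could not be set against its marker genes. The number of arrays limits the precision.

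Chromatin genes were more often lower than higher in treated cells. Of the 56 that could be tested, 26 fell (46.4%) and 8 rose (14.3%), while 22 did not pass. Among all 10088 genes, 16.8% fell, 17.4% rose and 34.2% passed in either direction. These 56 include 2 of the genes taken by name only, and without them 26 fell and 7 rose of 54. The estimate was below 0 for 45 of the 56 (80.4%), against 51.9% of all genes, and the median was -0.15 against -0.01. Values below 0 on all 6 arrays were found for 28 of the 56 (50%), against 15.9% of all genes, and values above 0 on all 6 arrays for 6 of them (10.7%), against 16.2%. The changes were modest in size. The median size was 0.245 against 0.116 over all genes, and 1 chromatin gene, Cbx6, changed by more than 1 in size. Set 3 weighed on the counts. Without it 15 fell and 4 rose of 55, and 21.3% of all genes passed, whereas 25 fell and 7 rose without set 1 and also without set 2. The estimates did not move nearer to 0. Their median was -0.18 without set 3, -0.17 without set 1 and -0.16 without set 2. Among the Cy3 arrays alone 16 fell and 5 rose of 57, and 23.6% of all genes passed.

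**Figure D1:**
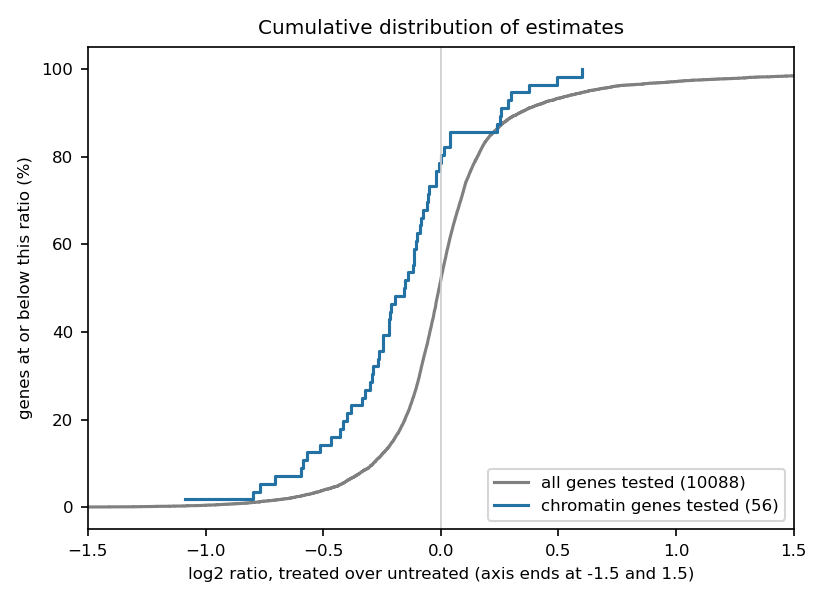
Cumulative share of genes (vertical axis, %) at or below a given log2 ratio of treated over untreated (horizontal axis, cut at -1.5 and 1.5), for the 56 chromatin genes tested and all 10088 genes tested. The curve of the chromatin genes lies to the left for ratios below 0, with a median of -0.15 against -0.01, and ends at 0.60, while the curve of all genes continues past the axis.

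Counts were then taken by class, with classes formed by symbol prefix. The lysine methyltransferases thus include Setd3, which is known to methylate actin, among the genes that fell. Among chromobox readers 5 of 6 fell and 0 rose, at a median of -0.40. Among SMARC remodellers 5 of 9 fell and 0 rose (median -0.19), and among lysine methyltransferases 4 of 8 fell and 0 rose (median -0.18). DNA methyltransferases had 2 of 4 that fell and 1 that rose (median -0.37), bromodomain readers also 2 of 4 and 1 (median -0.17). Of 11 deacetylases 4 fell and 2 rose (median -0.11), of 6 lysine demethylases 2 fell and 1 rose (median -0.03). Of 3 acetyltransferases and of 3 CHD remodellers, 1 fell and 1 rose in each class, with medians of -0.11 and -0.09. Each median is to be read beside the -0.01 of all genes tested, and each share that fell beside their 16.8%. Differences between classes were not tested. Without set 3, 1 of 9 SMARC remodellers, 2 of 8 lysine methyltransferases and 4 of 6 chromobox readers fell, and on the Cy3 arrays alone 1 of 10, 2 of 8 and 4 of 6. The medians of these classes were -0.19, -0.20 and -0.44 without set 3, and -0.11, -0.17 and -0.36 on the Cy3 arrays. Dnmt3l has no value in set 1, so that without set 2 or set 3 it drops out, no DNA methyltransferase rises and their median is -0.57 or -0.62. The medians of the 9 chromatin classes were below 0 in each of the 3 sets, but that of the CHD remodellers was 0.03 on the Cy5 arrays alone, and that of the lysine demethylases was -0.02 on the Cy5 arrays and -0.17 on the Cy3 arrays.

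**Figure D2:**
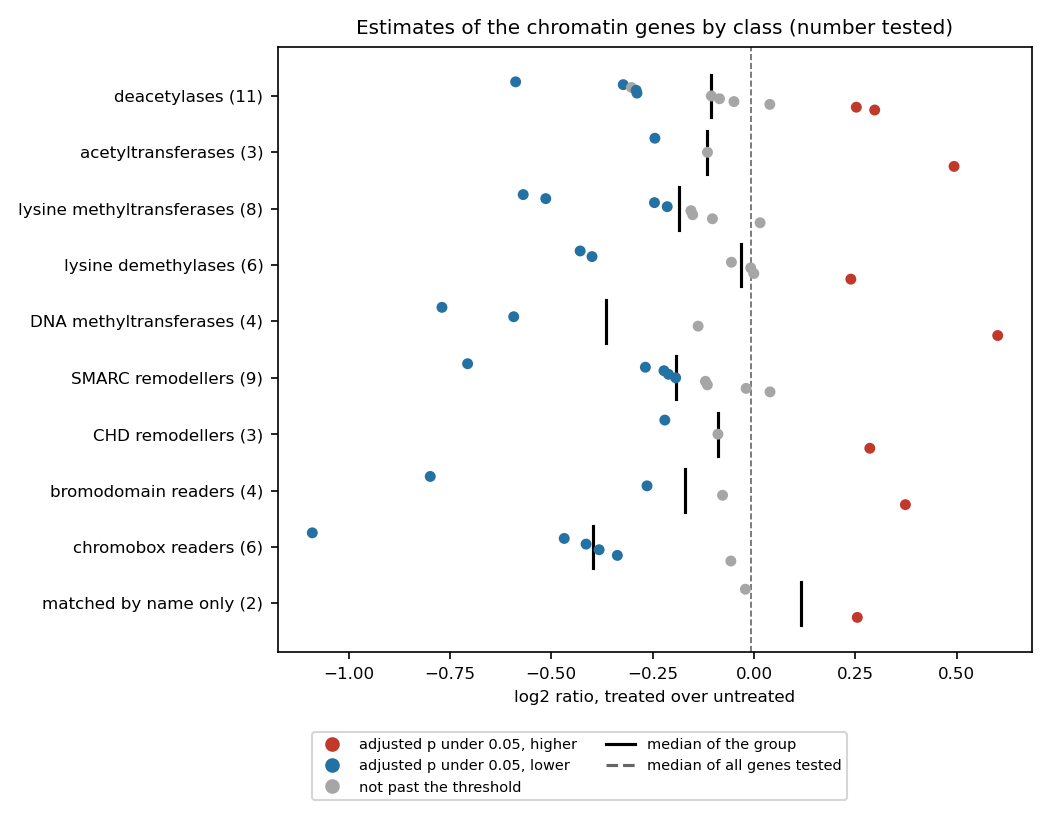
Estimated log2 ratio of treated over untreated (horizontal axis) for each chromatin gene tested, 1 point per gene, by class with the number tested in brackets; colours mark genes that passed higher or lower, black bars the class medians, and the dashed line the median of all genes. The chromobox readers lie furthest to the left, with a median of -0.40 and all 6 points below 0.

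The chromobox genes held the largest fall. Cbx6, a Polycomb chromobox gene, had ratios of -1.14, -1.18 and -1.03 on the Cy5 arrays and -1.05, -1.15 and -0.99 on the Cy3 arrays. All 6 arrays were low. Its mean was -1.09 ± 0.08, a 2.13-fold fall (limma's adjusted p = 4.4e-05), and 29 of the 10088 genes tested had a lower estimate. These are averages of 2 probes that separated by orientation in opposite ways. One read -1.58, -1.57 and -1.36 on the Cy5 arrays and -1.19, -1.16 and -0.98 on the Cy3 arrays, with a mean of -1.31. The other read -0.71, -0.79 and -0.71 on the Cy5 arrays and between -1.14 and -0.90 on the Cy3 arrays, with a mean of -0.87. Each probe passed when tested on its own. The other measured Polycomb chromobox genes also fell, Cbx8 by 0.41 ± 0.03 (limma's adjusted p = 0.00105) and Cbx2 by 0.34 ± 0.18 (adjusted p = 0.0177). Cbx2 was below 0 on 5 of 6 arrays and at 0.26 on the Cy3 array of set 2. It no longer passed without set 1 or without set 3, nor with the 6 arrays as separate replicates (adjusted p from 0.000159 to 0.376 over all its alternatives). Cbx1, Cbx3 and Cbx5 encode the HP1 proteins beta, gamma and alpha, which bind the methylated histone H3 of heterochromatin. Cbx3 fell by 0.47 ± 0.13 and Cbx5 by 0.38 ± 0.10, each with 6 of 6 arrays lower. Cbx1 was also below 0 on 6 of 6 arrays but at -0.06 ± 0.03, with a 95% interval from -0.17 to 0.05 (limma's adjusted p = 0.378).

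DNA methyltransferases moved in both directions. Dnmt1, the enzyme that copies methylation onto newly replicated DNA, had ratios of -0.69, -0.73 and -0.63 on the Cy5 arrays and of -0.92, -0.84 and -0.81 on the Cy3 arrays. All 6 values were low, and those of the Cy3 orientation were the lower ones. Dnmt1 fell by 0.77 ± 0.04, or 1.70-fold (limma's adjusted p = 0.000108), and its 2 probes had means of -0.78 and -0.76. Dnmt3b, which methylates DNA that carried no mark, ran from -0.62 to -0.54 on the Cy5 arrays and from -0.66 to -0.56 on the Cy3 arrays, so that both orientations overlapped. It fell by 0.59 ± 0.05 (adjusted p = 0.000293). Dnmt3a, its paralogue, was below 0 on 6 of 6 arrays at -0.14 ± 0.09 and did not pass (adjusted p = 0.0981, 95% interval -0.27 to -0.01 before adjustment). Dnmt3l, an inactive partner of those enzymes that is known mainly from germ cells, was listed at exactly 0 on both arrays of set 1 and was tested on the other 2 sets. Its 4 measured ratios were 0.83 and 0.71 on Cy5 arrays and 0.22 and 0.64 on Cy3 arrays, all above 0. It rose by 0.60 ± 0.11 (n = 2 sets, limma's adjusted p = 0.00257), but with zeros kept as values it did not pass, with an estimate of 0.40 and an adjusted p of 0.0706. On the Cy3 arrays alone it did not pass either (adjusted p = 0.128).

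Motifs were searched in the RefSeq promoter windows (assembly GRCm38.p6, 250 bases before to 50 after a gene's start), which were held for 46 of the 58 genes, 15 of them with several windows, and a gene was counted if any of its windows held the letters. Of 23 genes that fell and had a window, 6 (26.1%) held the E2F-like letters TTTNNCGC on either strand. The same letters stood in 2 of 17 that did not pass and in 0 of 5 that rose. Of all 46 genes of the symbol pattern with a window, whatever their change, 8 (17.4%) held them. Counted by gene, the share was 8.28% of the tested genes with a window and 5.93% of all RefSeq genes with one. Counted by window, it was 5.17%. Whether the letters go with a fall was not tested. E2F factors are known for switching on genes of DNA replication. The interferon response element core (TTTC and TTTC with 2 free bases between them) was held by 1 of the 23 genes that fell, Cbx5. It was held by 0 of the 5 that rose and by 1 of the 17 that did not pass, Brd7, against 4.04% of tested genes. The kappaB-like letters (GGG and TTTCC with 2 free bases between them) were held by 0 of the genes that fell or rose. They were held by 2 of the 17 that did not pass (Hdac9 and Setdb1), against 1.94% of tested genes. A match is a description of the letters and not a site of binding. The E2F-like matches that lie before the start of Dnmt1, Cbx3 and Cbx5 are shown because these 3 fell most among the 5 genes that fell and held a match there. Each is printed on the gene's own strand, with the match in capitals. They lie at chr9:20952815-20952862 (minus strand) for Dnmt1, chr6:51470428-51470475 (plus strand) for Cbx3 and chr15:103239892-103239939 (minus strand) for Cbx5.
Dnmt1: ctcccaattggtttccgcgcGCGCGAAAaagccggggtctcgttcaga
Cbx3: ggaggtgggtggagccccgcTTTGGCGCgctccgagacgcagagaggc
Cbx5: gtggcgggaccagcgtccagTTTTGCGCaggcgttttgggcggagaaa
Counted from the gene's start, the first base of the capitals is at -219 in Dnmt1, with the match on the other strand and a further match overlapping it at -217. In Cbx3 and Cbx5 the match is on the gene's strand, at -168 and -67. Cbx5 has more than 1 window, so that -67 is counted from the start of the window that holds this match. Its interferon response element core lies in another window. The remaining genes that fell and held these letters were Ezh2, Sirt3 and Smarcd1.

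Among lysine methyltransferases, Suv39h2 and Ezh2 fell most. Suv39h2, which places the H3 lysine 9 mark that HP1 proteins bind, had ratios of -0.72, -0.59 and -0.51 on the Cy5 arrays and -0.68, -0.38 and -0.54 on the Cy3 arrays. All were low, and both orientations overlapped. It fell by 0.57 ± 0.12, or 1.48-fold (limma's adjusted p = 9e-04). Ezh2, the catalytic subunit of Polycomb repressive complex 2, had ratios of -0.67, -0.56 and -0.45 on the Cy5 arrays and -0.62, -0.44 and -0.34 on the Cy3 arrays. Set 1 was the lowest in both orientations. Ezh2 fell by 0.51 ± 0.13, or 1.43-fold (adjusted p = 0.00152). Its paralogue Ezh1 stood at 0.01 ± 0.08 over 2 probes, with a 95% interval from -0.11 to 0.14, and its 6 values ran from -0.10 to 0.12 without overlapping those of Ezh2. Setd3, which is known to methylate actin, fell by 0.25 ± 0.06, and Kmt2a, the MLL1 enzyme of H3 lysine 4, by 0.21 ± 0.09, each with 6 of 6 arrays lower. Kmt2a did not pass without set 2 or without set 3, nor on the Cy3 arrays alone (limma's adjusted p up to 0.117), and Setd3 did not without set 3 or on those arrays (up to 0.0714). Kmt2b (-0.15, adjusted p = 0.0526) and Setdb1 (-0.16, adjusted p = 0.052) were below 0 on all 6 arrays and lay just outside the threshold. Setd6 stood at -0.10 ± 0.12, with 3 arrays on each side of 0.

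Of the 6 lysine demethylases, 3 passed. Kdm3b, a demethylase of H3 lysine 9, had ratios of -0.49, -0.44 and -0.51 on the Cy5 arrays and -0.29, -0.43 and -0.42 on the Cy3 arrays. It fell by 0.43 ± 0.04 (limma's adjusted p = 0.000982). Kdm2b, which guides a Polycomb complex to unmethylated CpG islands, fell by 0.40 ± 0.05, with 6 of 6 arrays lower. Kdm6a, also called UTX, removes the H3 lysine 27 mark that Ezh2 places. It rose by 0.24 ± 0.01 with 6 of 6 arrays higher (adjusted p = 0.00775), but did not pass without set 3 (adjusted p = 0.0717). Kdm4b and Kdm5d stood at -0.06 ± 0.07 and -0.01 ± 0.10. Kdm5c averaged close to 0 because its orientations had opposite signs, at 0.24, 0.24 and 0.32 on the Cy5 arrays and -0.30, -0.30 and -0.21 on the Cy3 arrays.

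The SMARC genes encode subunits of SWI/SNF and related remodellers. Smarca2, the ATPase also called BRM, stood apart with ratios of -0.77, -0.75 and -0.69 on the Cy5 arrays and -0.70, -0.69 and -0.64 on the Cy3 arrays. It fell by 0.71 ± 0.04, or 1.63-fold (limma's adjusted p = 0.000146). With probes averaged to genes, the highest of its 6 values lay below every value of the other 8 SMARC genes tested, whose lowest was -0.52, for Smarcd1. This does not hold for single probes, since a probe of Smarcd2 read -0.70 on the Cy3 array of set 2. Smarcad1 (-0.27 ± 0.07) and Smarcal1 (-0.22 ± 0.06), remodellers outside SWI/SNF, fell with 6 of 6 arrays lower. So did the SWI/SNF subunit genes Smarcd1 (-0.21 ± 0.05) and Smarcc1 (-0.19 ± 0.08). None of these 4 passed without set 3 or on the Cy3 arrays alone, and Smarcc1 and Smarcd1 did not on the Cy5 arrays alone either, with adjusted p up to 0.307, 0.173, 0.169 and 0.081 for Smarcd1, Smarcad1, Smarcc1 and Smarcal1 over all their alternatives. The small SD of Smarcd1 does not show its spread between arrays. Its values ran from -0.01 on the Cy5 array of set 2 to -0.52 on the Cy3 array of set 2. Smarcb1 (-0.12), Smarce1 (-0.02) and Smarcd3 (0.04) did not pass. Nor did Smarcd2, at -0.12, whose 3 probes disagreed with means of -0.34, -0.13 and 0.12. Smarca5, the ISWI ATPase, was not tested because 1 set was complete. Its 3 measured values were -1.503 on a Cy5 array and 0.92 and 0.23 on Cy3 arrays, and 3 values were exactly 0.

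Bromodomain readers split. Brd3, a BET protein that binds acetylated histones, had ratios of -0.73, -0.79 and -0.64 on the Cy5 arrays and -0.86, -0.96 and -0.81 on the Cy3 arrays. It fell by 0.80 ± 0.07, or 1.74-fold (limma's adjusted p = 0.000135). Its BET relative Brd2 was higher on every array, from 0.43 to 0.60 in the Cy5 orientation and from 0.22 to 0.31 in the Cy3 orientation, and rose by 0.37 ± 0.04 (adjusted p = 0.00163). No array of 1 gene overlapped an array of the other, although the difference between them was not tested. Both kept their side of the threshold under each alternative that was run. Brd8, a subunit of the TIP60 acetyltransferase complex, fell by 0.26 ± 0.03 with 6 of 6 arrays lower, but did not pass without set 3 (limma's adjusted p = 0.0543). Brd7, of a SWI/SNF complex, stood at -0.08 ± 0.06 and did not pass.

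The deacetylases were mixed. Hdac5, a class IIa deacetylase that shuttles between nucleus and cytoplasm, had ratios of -0.59, -0.50 and -0.55 on the Cy5 arrays and -0.63, -0.70 and -0.55 on the Cy3 arrays. Both orientations overlapped, and it fell by 0.59 ± 0.03 (limma's adjusted p = 0.000275). Its class relative Hdac9 stood at -0.30 ± 0.24 (adjusted p = 0.0508), with 5 arrays below 0 and the set 2 array of the Cy3 orientation at 0.18, while Hdac7 stood at 0.04 ± 0.07. Hdac6, the tubulin deacetylase, fell by 0.32 ± 0.11 with 6 of 6 arrays lower. On the Cy3 arrays alone its estimate was -0.24 and did not pass (adjusted p = 0.0748). Hdac1, a nuclear class I enzyme of corepressor complexes, rose by 0.30 ± 0.03 with 6 of 6 arrays higher, from 0.19 to 0.43 (adjusted p = 0.00374). The other class I genes Hdac2 (-0.09), Hdac3 (-0.05, 3 probes) and Hdac8 (-0.10) did not pass.

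The sirtuins, deacetylases that depend on NAD, went both ways. Sirt3, the mitochondrial enzyme, fell by 0.29 ± 0.03 with 6 of 6 arrays lower, and its adjusted p was 0.0681 on the Cy3 arrays alone (limma). The nuclear enzyme Sirt1 fell by 0.29 ± 0.12 (limma's adjusted p = 0.0136). Its means were -0.47 on the Cy5 arrays and -0.11 on the Cy3 arrays, where the set 2 array was at 0.07, and it did not pass on the Cy3 arrays alone (adjusted p = 0.395) or without set 3. Sirt2, a mainly cytoplasmic enzyme, rose by 0.25 ± 0.14 with 5 of 6 arrays higher. It did not pass without set 1, without set 3 or on the Cy5 arrays alone (adjusted p up to 0.218).

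Of the acetyltransferases, Kat2b, also called PCAF, had ratios of 0.46, 0.39 and 0.46 on the Cy5 arrays and 0.59, 0.39 and 0.67 on the Cy3 arrays. It rose by 0.49 ± 0.09, or 1.41-fold (limma's adjusted p = 0.00112). This rests on 1 of its 2 probes. The other probe had 2 zeros, read -2.06, -2.33 and -1.89 on the Cy5 arrays and 2.77 on 1 Cy3 array, and averaging both probes gave 0.04 with an adjusted p of 0.842. Its close relative Kat2a, GCN5, was below 0 on 6 of 6 arrays but at -0.11 ± 0.04, and did not pass (adjusted p = 0.108). Kat6b, a MYST-family enzyme, fell by 0.24 ± 0.06 with 6 of 6 arrays lower. It did not pass without set 3 or in either orientation alone (adjusted p up to 0.0976).

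Among CHD remodellers, Chd1, which binds methylated H3 lysine 4 at active genes, had ratios of 0.25, 0.35 and 0.27 on the Cy5 arrays and 0.18, 0.42 and 0.24 on the Cy3 arrays. It rose by 0.29 ± 0.09 (limma's adjusted p = 0.00858) and missed the threshold on the Cy3 arrays alone (adjusted p = 0.0609). Chd4, the ATPase of the NuRD deacetylase complex, fell by 0.22 ± 0.04 over sets (adjusted p = 0.0123). That fall came from 1 orientation. The Cy3 arrays read -0.48, -0.45 and -0.47, and the Cy5 arrays -0.02, -0.01 and 0.11, with a mean of 0.03 and an adjusted p of 0.749 on the latter alone. Chd4 also did not pass without set 3. Chd1l stood at -0.09 ± 0.05 and did not pass. Of the genes taken by name only, Katna1, the catalytic subunit of katanin, had ratios of 0.16, 0.35 and 0.24 on the Cy5 arrays and 0.17, 0.37 and 0.23 on the Cy3 arrays. It rose by 0.25 ± 0.10, and no longer passed without set 3 or on the Cy3 arrays alone (limma's adjusted p up to 0.0772). Katnbl1 stood at -0.02 ± 0.13, and Katnal2, with 4 zeros, read 0.30 and -0.72 on the arrays of set 2 and was not tested.

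**Figure D3:**
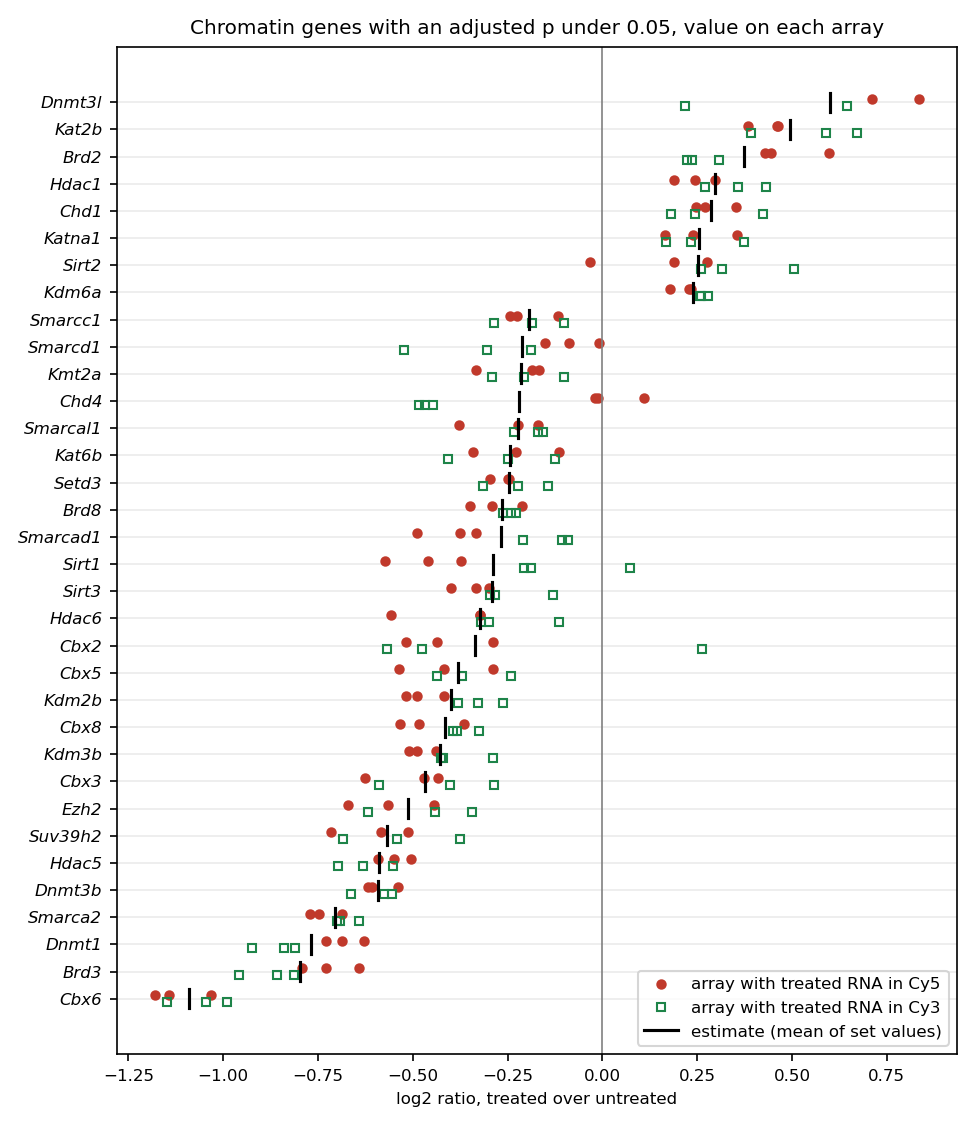
Log2 ratio of treated over untreated (horizontal axis) on each array for the 34 genes of the symbol pattern that passed; filled circles are Cy5 arrays, open squares Cy3 arrays, and black bars the estimates. The points of Cbx6 lie between -1.18 and -0.99, and those of Chd4 separate by orientation, near 0 in Cy5 and near -0.47 in Cy3.

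Both dye orientations were compared for each gene. A dye term fitted on the 6 arrays passed for 2 of 56 chromatin genes, Chd4 and Kdm5c, and for 413 of 10131 genes in all (4.08%). Smarca2, Dnmt3b and Hdac5 had means of -0.73 and -0.68, -0.59 and -0.60, and -0.55 and -0.63 for Cy5 and Cy3. The means of Cbx6, -1.12 and -1.06, are averages over its 2 probes, which differed by orientation in opposite directions.

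**Figure D4:**
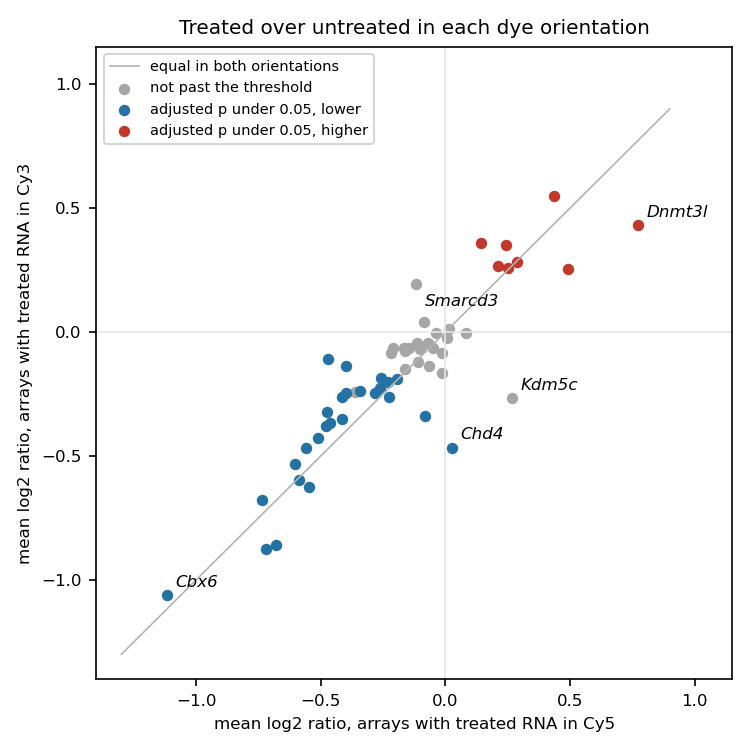
Mean log2 ratio of treated over untreated over the Cy5 arrays (horizontal axis) and the Cy3 arrays (vertical axis), 1 point for each of 56 genes; the diagonal marks equal means. Most points lie near the diagonal, while Kdm5c (0.27 and -0.27), Chd4 (0.03 and -0.47) and Smarcd3 (-0.12 and 0.20) lie off it.

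Genes that work with these enzymes were described from lists of other chromatin genes. Of 20 Polycomb partners 4 rose and 4 fell, at a median of -0.02. Pcgf5, a subunit of Polycomb repressive complex 1, rose by 1.30 ± 0.06 and Phc2 by 0.58 ± 0.08, while Pcgf6 stood at -0.51 ± 0.03 and Suz12, the partner of Ezh2, at -0.31 ± 0.08 (limma's adjusted p up to 0.0059 for these 4). The values of Suz12 separated by orientation, at -0.25, -0.13 and -0.12 on the Cy5 arrays and -0.53, -0.31 and -0.49 on the Cy3 arrays. Of 12 other methyltransferases and COMPASS subunits 1 rose and 3 fell (median -0.06). Prmt2, an arginine methyltransferase, rose by 0.72 ± 0.05, and Dpy30 and Smyd3 fell by 0.33 ± 0.07 and 0.29 ± 0.03. Smyd3 separated by orientation, at -0.45, -0.43 and -0.46 on the Cy5 arrays and -0.06, -0.17 and -0.16 on the Cy3 arrays. Of 12 other acetyltransferase subunits, coactivators and readers 1 rose and 5 fell (median -0.14). Mllt3, a reader of acylated lysines, rose by 0.48 ± 0.03, whereas Ing4 and Ing1, which bind methylated H3 lysine 4, fell by 0.68 ± 0.02 and 0.59 ± 0.03.

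Of 11 deacetylase corepressor genes 1 rose and 2 fell (median -0.08). Sap30, a subunit of the Sin3 complex, rose by 0.78 ± 0.12, while Mbd3 and Sin3a each fell by 0.19, with SDs of 0.02 and 0.08. Of 8 DNA methylation partners 4 rose and 2 fell (median 0.08). Gadd45b, a stress-induced gene linked to DNA demethylation, rose by 1.72 ± 0.06 and Gadd45a by 0.52 ± 0.004. The small SD of Gadd45a does not show its spread between arrays. Its values ran from 0.03 on the Cy5 array of set 2 to 1.01 on the Cy3 array of set 2, which cancel in the set mean. Uhrf1, which brings Dnmt1 to newly replicated DNA, fell by 0.67 ± 0.12, beside Dnmt1 itself, and Mbd4, a repair enzyme, by 0.23 ± 0.09 (n = 2 sets). Of 19 other remodeller subunits 3 rose and 3 fell (median 0.004). The histone H3.3 chaperone gene Daxx rose by 2.43 ± 0.07 and Ino80 by 0.33 ± 0.10, while Hells and Baz1b fell by 0.45 ± 0.11 and 0.34 ± 0.10. Hells separated by orientation, at -0.71, -0.72 and -0.66 on the Cy5 arrays and -0.42, 0.03 and -0.19 on the Cy3 arrays. Of 11 histone chaperones 0 rose and 5 fell (median -0.22), led by Chaf1b (-0.65 ± 0.12) and Chaf1a (-0.53 ± 0.12), subunits of the factor that assembles nucleosomes on replicating DNA. Shares that fell are to be read beside 16.8% of all genes, and shares that rose beside 17.4%.

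Genes of S phase and mitosis moved with the falls. Of 29 measured, 27 fell and 0 rose, at a median of -0.59. Tk1, which encodes a thymidine kinase, fell by 1.51 ± 0.08 and the cyclin gene Ccna2 by 1.21 ± 0.16. The exceptions were Ccne1 (-0.004 ± 0.10) and Aurkb (0.12 ± 0.06). Dnmt1, Uhrf1, Ezh2, Suv39h2, Chaf1a and Chaf1b are known to be expressed more in dividing cells. They were picked from the genes that fell, which also include Cbx6, Brd3, Smarca2 and Hdac5. The part of cell division in the changes of the chromatin genes was not tested. In a ratio of bulk RNA, fewer cells with a transcript and less of it in each cell cannot be told apart.

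**Figure D5:**
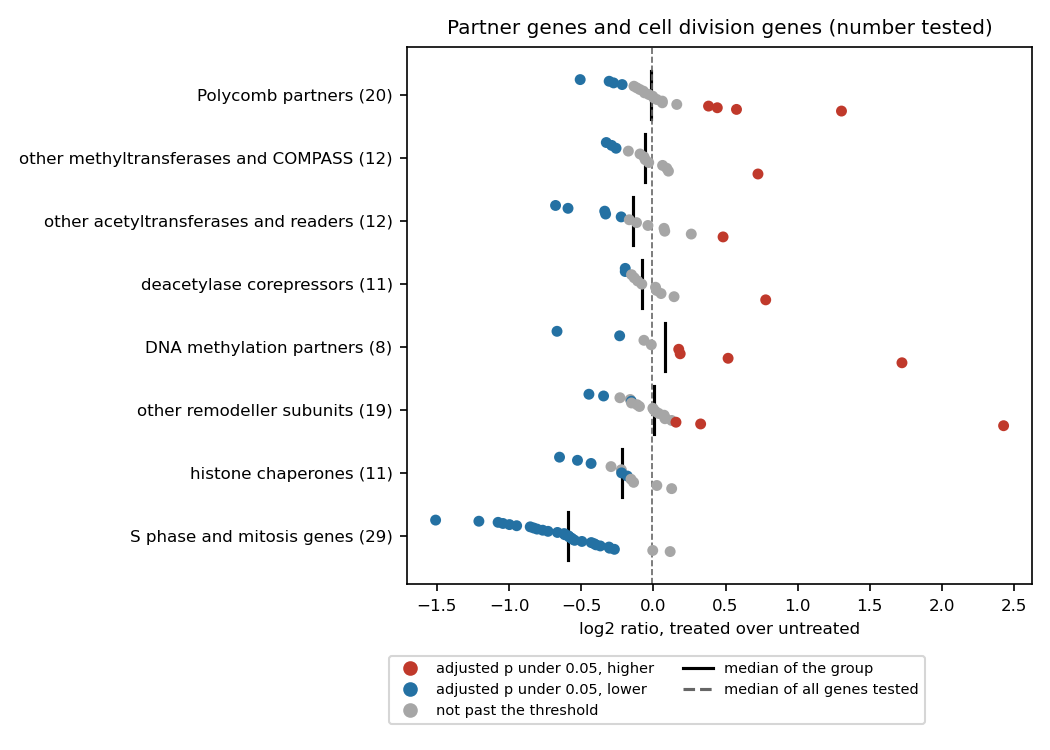
Estimated log2 ratio of treated over untreated (horizontal axis) of genes outside the symbol pattern, 1 point per gene, by list with the number tested in brackets; colours mark genes that passed higher or lower, black bars the list medians, and the dashed line the median of all genes. Daxx (2.43), Gadd45b (1.72) and Pcgf5 (1.30) lie furthest to the right, and 27 of the 29 S phase and mitosis genes lie to the left as passed falls.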

How the data were processed

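The authors deposited a log2 ratio for each feature on each array. Its base follows from the largest value, which equals log2 of 100. For background correction, dye normalization and scanner, the method is not given in the sources used here. Channel intensities were not used here, so dim features could not be filtered. Between 1328 and 2262 features per array (8.16% to 13.9%) were exactly 0 and were treated as not measured, and 969 were 0 on all 6 arrays. Arrays of opposite orientation correlated at -0.768 to -0.404 as deposited, so the Cy3 arrays were turned by a factor of -1. Features were named from the platform annotation: 13738 had 1 symbol, 52 several and 2491 none, and 13694 matched a RefSeq gene of GRCm38.p6. A gene is the mean of those of its probes with the fewest zeros. A set value needs both of its arrays. Set values of 10088 genes were tested against 0 with lmFit and eBayes (limma 3.58.1, R 4.3.3) and Benjamini-Hochberg adjustment over all of them. Set values were simulated for 9207 genes of the treated over untreated comparison, the number with all 3 set values. Of the changes of 0.25, 24% were called, with 66% of 0.5, 92% of 1 and 98% of 2, and 5 false calls. These figures may not hold for genes tested on 2 set values, such as Dnmt3l.

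The symbol pattern used no measured value, but the members and lists were chosen with earlier results of these data known. Values on every array are given for members that passed with a size of at least 0.5, or for the largest of a class with none, and from each list the 2 largest rises and falls that passed are named. Alternatives concerned zeros, incomplete sets, the replicate unit, scaling, dye orientation, probes and leaving out each set.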

Additional observations from a re-analysis of the deposited data

Results flagged for a closer look

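The treated over untreated ratio of Chd4 differed between the dye orientations, by 0.49 for Cy5 minus Cy3 (limma's adjusted p of the dye term = 0.0335), with means of 0.03 and -0.47. Kdm5c differed by 0.53 (adjusted p = 0.0313), with 3 of 3 arrays above 0 in Cy5 and 3 of 3 below 0 in Cy3. Smarcd3 had 3 of 3 Cy5 arrays below 0 and 3 of 3 Cy3 arrays above 0, a difference of -0.31, and the dye term did not pass (adjusted p = 0.0632). Groups of 3 arrays were too small for a test of outlying arrays.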

How the results depend on the processing

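Of 15 alternatives, most left the counts within 1.5 times those reported. Fits on the 6 arrays also changed the model and the genes tested. Among the Cy3 arrays alone 5 chromatin genes rose and 16 fell, while 23.6% of all genes passed. Leaving out 1 set gave 4 to 7 that rose, 15 to 25 that fell and 2036 to 3379 passing genes in the whole table, with the lowest counts without set 3. Over the 34 genes that passed, 472 alternative values kept direction and side of the threshold in 430 cases, no longer passed in 41 and changed sign in 1, Chd4 on the Cy5 arrays alone (0.0264). Of the 34, 15 passed in every alternative that gave a value. Same-numbered arrays deviated together from their orientation's mean in the ratios as deposited with r of 0.254, 0.191 and 0.0842 over genes, and 5 of 6 arrays correlated best with their own number. This link between same-numbered arrays comes from the data, not from the labels, and 1 of the 3 values is under 0.1. Once turned to treated over untreated, such deviations run in opposite directions within a set. The set means of the reported fit, which averages arrays by number, cancel part of them. SDs over set values can thus be smaller than the spread between arrays. The origin of these deviations was not tested. With the set number as a replicate block on the 6 arrays 7 rose and 29 fell of 55 (39.6% of all genes passed), and without the block 8 rose and 29 fell of 56 (37.4%). The block was fitted on the turned ratios, so it cannot take up deviations that run in opposite directions within a set. The block fit added Dnmt3a, Hdac9, Kat2a, Kmt2b and Setdb1 to the genes that passed and lost Cbx2, Smarcd1 and Dnmt3l, which has no complete set 1. Of 165 class and member medians under alternatives, 2 had the other sign, that of the CHD remodellers on the Cy5 arrays alone (0.03) and that of the genes taken by name only with zeros kept (-0.02). Centring, scaling and quantile normalization moved the median of all genes by at most 0.00335. No intensity was used here, so signal over background sets no limit that could be given.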
